A study of Homo sapiens with 6 samples.

Results

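The 10 genes described here encode parts of the machinery that loads the sliding clamp PCNA onto DNA and completes the lagging strand: RFC2, RFC3, RFC4, RFC5, DSCC1, PCNA, FEN1, LIG1, POLD1 and POLD3. They were taken by symbol from a table of 29538 genes, and each symbol matched a single entry. The cells were MDA-MB-231, an established line of human triple-negative breast cancer cells. Cultures received an siRNA against BYSL (siBYSL, SI-BYSL-Homo-838, 3 cultures) or a negative-control siRNA (siNC, 3 cultures), and the series' design text calls the 3 cultures of each group biological replicates that are independent. Both groups got 160 pmol siRNA per well with 4 µL Lipofectamine RNAiMAX, fresh medium at 6 h and harvest at 48 h. BYSL, which encodes bystin, a factor of 40S ribosomal subunit maturation, was targeted with an siRNA of a single sequence in a single line.

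A sliding clamp is a ring that tethers DNA polymerase to its template. Replication factor C (RFC) opens the PCNA ring with ATP and closes it around primed DNA. Its small subunits RFC2, RFC3, RFC4 and RFC5 also serve in other loaders, each with its own large subunit: CHTF18 (which joins DSCC1 and CHTF8 and acts in sister-chromatid cohesion), ATAD5 (which unloads PCNA) and RAD17 (which loads the checkpoint clamp). On the lagging strand DNA polymerase delta, with the catalytic subunit POLD1 and the accessory subunit POLD3, extends each Okazaki fragment. FEN1 then cuts the displaced flap and LIG1 seals the nick.

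Libraries held 27754883 to 32088817 counts in siBYSL and 28606048 to 30476744 in siNC. BYSL averaged 16.3 ± 0.94 CPM in siBYSL and 99.9 ± 4.9 CPM in siNC (CPM are counts scaled to library size, here with TMM factors; SD, n = 3 each), with counts of 459, 519 and 502 in siBYSL 1 to 3 and 2908, 2648 and 3006 in siNC 1 to 3. Every library followed its label. Library siBYSL 3 stood apart from its group: its counts differed from those of siBYSL 1 with a chi-square of 20.1 per degree of freedom, and from those of siBYSL 2 with 12.3. Between siBYSL 1 and 2 this measure was 3.21, and in siNC pairs it was 2.39 to 4.43. Results that depended on this library are given with and without it. Of 6 genes known to be high in this line (VIM, CD44, AXL, CAV1, MSN, ZEB1) 4 were called lower and 1 higher. All were well expressed, from VIM, at 2085 CPM in siBYSL and 2404 CPM in siNC, to ZEB1, at 42.7 CPM in siBYSL and 37.6 CPM in siNC. The estrogen and progesterone receptor genes ESR1 and PGR did not exceed 0.381 CPM in any library. The epithelial genes EPCAM (20.9 CPM in siBYSL and 14.4 CPM in siNC) and CDH1 (9.18 CPM in siBYSL and 4.48 CPM in siNC) were detected and called higher. These CPM are not scaled to gene length, so they do not rank different genes. Of genes of other cell types, PTPRC (leukocytes) stayed at or under 0.312 CPM and CDH5 and VWF (endothelium) at or under 0.107 CPM, while PECAM1 averaged 6.48 CPM in siBYSL and 5.32 CPM in siNC. Among fibroblast genes DCN stayed at or under 0.535 CPM, LUM averaged 3.31 CPM in siBYSL and 2.89 CPM in siNC, and PDGFRB, called higher, 6.08 CPM in siBYSL and 4.61 CPM in siNC.

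Transcripts of the fragment-maturation enzymes FEN1 and LIG1, of the polymerase delta subunits POLD1 and POLD3, of RFC5 and of DSCC1 were lower after BYSL knockdown. PCNA was not called. All 10 genes passed the filter on low counts. 6 were called lower and 0 higher in siBYSL (quasi-likelihood test of edgeR, p adjusted by Benjamini-Hochberg over 16412 genes and under 0.05), at 59.96% of their siNC level for DSCC1, 67.4% for RFC5, 72.2% for LIG1, 74.8% for POLD1, 76.7% for POLD3 and 77.1% for FEN1. Over all genes tested 18.4% were called lower and 18.5% higher. In 8 of the 10 genes every siBYSL library lay below every siNC library, which held for 24.9% of all genes tested. The median log2 fold change of the 10 genes was -0.38, beside 0.0066 for all genes tested. The genes were picked with earlier results of these data known, so these counts describe the set and carry no test of it. In bulk RNA, fewer cells in S phase and less transcript per cell cannot be told apart.

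**Figure D1:**
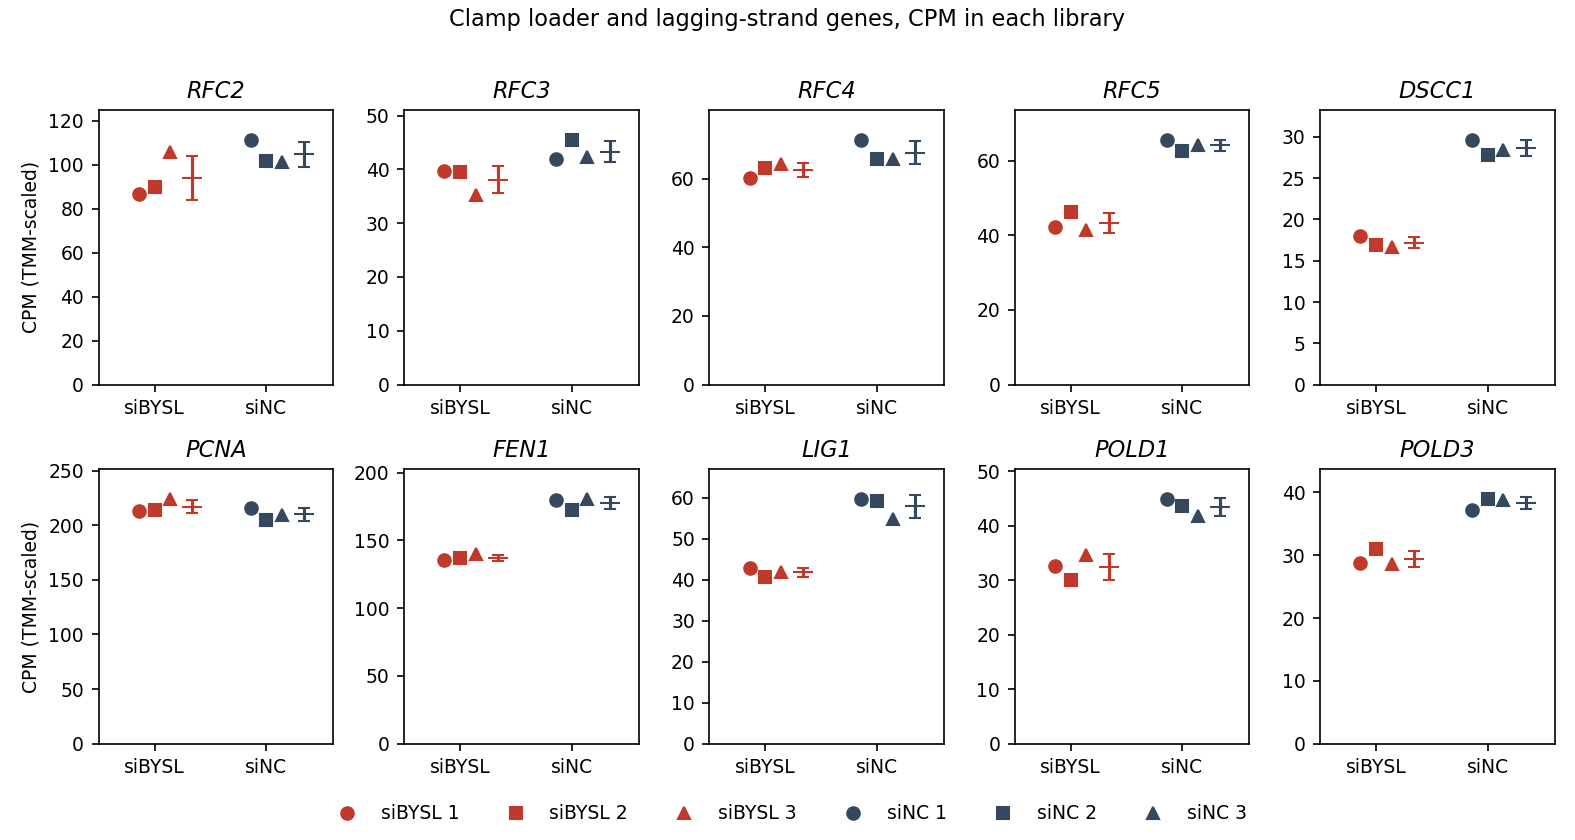
TMM-scaled CPM (linear axes from 0) of the 10 genes in each library, siBYSL in red left of siNC in dark blue, with the mean and SD of the 3 libraries as a bar beside each group. The groups are apart for every gene but RFC2 and PCNA, where siBYSL 3 lies highest of its group at 105.6 and 224.1 CPM.

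The calls divided the clamp loader. RFC5 (ENSG00000111445.14, chr12:118013588-118033130, plus strand, GRCh38) stood at 42.2, 46.3 and 41.3 CPM in siBYSL 1 to 3, against 65.6, 62.7 and 64.2 CPM in siNC 1 to 3. All siBYSL libraries were thus well below the lowest siNC library. The log2 fold change was -0.57 (SE 0.060, adjusted p = 5.2e-05).

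RFC2, RFC3 and RFC4, the other small subunits, did not pass the threshold with all 6 libraries. RFC4 (ENSG00000163918.12, chr3:186789880-186807058, minus strand) stood at 60.3, 63.2 and 64.1 CPM in siBYSL against 71.3, 65.7 and 65.6 CPM in siNC, groups that came close but did not overlap (log2 fold change -0.11, SE 0.057, adjusted p = 0.153). RFC3 (ENSG00000133119.13, chr13:33818049-33966558, plus strand) stood at 39.6, 39.4 and 35.3 CPM in siBYSL against 42.0, 45.5 and 42.3 CPM in siNC, also without overlap (-0.18, SE 0.066, adjusted p = 0.0514). RFC2 (ENSG00000049541.11, chr7:74231499-74254458, minus strand) stood at 86.6 and 89.7 CPM in siBYSL 1 and 2 but 105.6 CPM in siBYSL 3, against 111.4, 101.9 and 101.2 CPM in siNC (-0.16, SE 0.076, adjusted p = 0.127). Here the groups overlapped through siBYSL 3 alone.

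Without library siBYSL 3 these 3 small subunits were called lower too. RFC2 was then at -0.25 (SE 0.046, adjusted p = 1.5e-04), RFC3 at -0.13 (SE 0.053, adjusted p = 0.0497) and RFC4 at -0.13 (SE 0.049, adjusted p = 0.0374). That made 9 of the 10 genes lower and 0 higher, with 24.3% of 16743 genes called lower in that comparison. Over all alternatives tried the adjusted p ran from 1.5e-04 to 0.402 for RFC2, from 0.0314 to 0.293 for RFC3 and from 0.0374 to 0.685 for RFC4. Their fold changes stayed negative throughout, but whether they were called depended on the libraries, filter and size factors used.

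**Figure D2:**
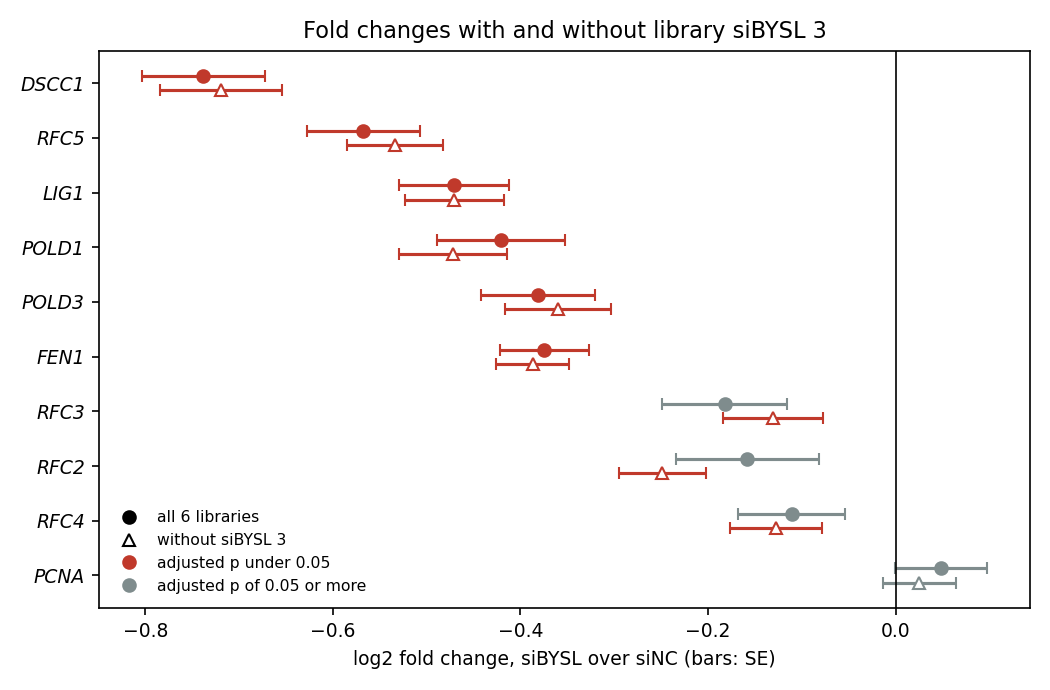
Log2 fold change of siBYSL over siNC with its SE for each gene, from all 6 libraries (filled circles) and without library siBYSL 3 (open triangles), in red where the adjusted p was under 0.05. DSCC1 at -0.74 and RFC5 at -0.57 lie lowest with all libraries, PCNA at 0.05 highest, and RFC2, RFC3 and RFC4 change from grey to red without siBYSL 3.

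Beside its partner subunits RFC5 took a smaller share of counts in siBYSL. The ratio of RFC5 to RFC4 counts was 0.70, 0.73 and 0.64 in siBYSL 1 to 3 and 0.92, 0.95 and 0.98 in siNC 1 to 3. Against RFC3 it was 1.07, 1.18 and 1.17 in siBYSL and 1.56, 1.38 and 1.52 in siNC, and against RFC2 it was 0.49, 0.52 and 0.39 in siBYSL and 0.59, 0.62 and 0.63 in siNC. In all 3 ratios every siBYSL library was below every siNC library. RFC1, the large subunit that makes the complex a PCNA loader, was called lower at -0.20 (SE 0.067, adjusted p = 0.0377), a call lost under 6 of 15 alternatives, among them library totals as scaling. The 12 ratios computed were chosen after the values were seen, so they are descriptions and were not tested.

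DSCC1 (ENSG00000136982.6, chr8:119833976-119856010, minus strand) had the largest change of the set. It stood at 18.0, 16.9 and 16.7 CPM in siBYSL 1 to 3 and at 29.7, 27.9 and 28.4 CPM in siNC 1 to 3, with no overlap and little spread within either group. The log2 fold change was -0.74 (SE 0.066, adjusted p = 1.7e-05), the 419th lowest of 16412. CHTF18, its partner and the large subunit of that loader, averaged 18.6 ± 2.1 CPM in siBYSL and 17.5 ± 1.5 CPM in siNC (SD, n = 3 each; log2 fold change 0.09, SE 0.096, adjusted p = 0.498). The ratio of DSCC1 to CHTF18 counts was 0.98, 1.01 and 0.80 in siBYSL and 1.55, 1.69 and 1.70 in siNC. The third subunit gene, CHTF8, had 1 to 2 counts per library in siBYSL and 1 to 5 in siNC, under the filter. Its overlaps with other genes were not searched and how its reads were counted is not stated, so these counts may not give its level. ATAD5 (0.06, adjusted p = 0.695) and RAD17 (0.08, adjusted p = 0.35), the large subunits of the other loaders, were not called, though RAD17 was called higher without siBYSL 3 (adjusted p = 0.0391).

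PCNA (ENSG00000132646.11, chr20:5114953-5126626, minus strand), the clamp itself, was the most abundant of the 10 and was not called. It stood at 213.0, 214.0 and 224.1 CPM in siBYSL and at 215.9, 204.7 and 208.9 CPM in siNC, overlapping groups with a log2 fold change of 0.05 (SE 0.049, adjusted p = 0.473). With library totals as scaling it was 0.13 (adjusted p = 0.066), and over all alternatives its adjusted p ran from 0.066 to 0.754.

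FEN1, the flap endonuclease (ENSG00000168496.4, chr11:61792637-61797244, plus strand), stood at 135.2, 136.7 and 139.7 CPM in siBYSL and 180.1, 172.7 and 180.7 CPM in siNC. Its groups were far apart beside the spread within each, and it fell by 0.37 on the log2 scale (SE 0.047, adjusted p = 1.6e-04). LIG1, the replicative DNA ligase (ENSG00000105486.14, chr19:48115445-48170603, minus strand), stood at 42.9, 40.8 and 41.8 CPM in siBYSL and 59.8, 59.4 and 54.7 CPM in siNC, again without overlap. It fell by 0.47 (SE 0.058, adjusted p = 1.4e-04). Both enzymes act while bound to PCNA, and their transcripts fell beside it: FEN1 counts were 0.62 to 0.64 of PCNA counts in siBYSL and 0.83 to 0.86 in siNC, and LIG1 counts 0.19 to 0.20 of PCNA counts in siBYSL and 0.26 to 0.29 in siNC. LIG3, the ligase that works with XRCC1 and can seal nicks in place of LIG1, averaged 29.6 ± 2.1 CPM in siBYSL and 27.7 ± 2.0 CPM in siNC (SD, n = 3 each) and was not called (0.10, SE 0.077, adjusted p = 0.363).

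POLD1 (ENSG00000062822.15, chr19:50384204-50418016, plus strand) stood at 32.7, 30.0 and 34.7 CPM in siBYSL and 44.98, 43.6 and 41.7 CPM in siNC. POLD3 (ENSG00000077514.9, chr11:74493851-74669117, plus strand) stood at 28.7, 30.9 and 28.6 CPM in siBYSL and 37.2, 39.0 and 38.7 CPM in siNC. Neither gene had overlapping groups. POLD1 fell by 0.42 (SE 0.068, adjusted p = 7.6e-04) and POLD3 by 0.38 (SE 0.061, adjusted p = 7.0e-04), and the ratio of POLD3 to POLD1 counts overlapped between groups, at 0.82 to 1.03 in siBYSL and 0.83 to 0.93 in siNC.

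The remaining subunits of polymerase delta were not called lower with all 6 libraries. POLD2, the subunit that bridges POLD1 and POLD3, averaged 131.8 ± 18.2 CPM in siBYSL and 137.1 ± 8.5 CPM in siNC (SD, n = 3 each; log2 fold change -0.06, SE 0.088, adjusted p = 0.652), with its highest value, 152.3 CPM, in siBYSL 3. Without that library POLD2 was called lower, at -0.17 (SE 0.048, adjusted p = 0.00554). POLD4, the smallest subunit, rose to 59.9 ± 8.5 CPM in siBYSL, against 47.2 ± 2.0 CPM in siNC (0.34, SE 0.090, adjusted p = 0.0126), with its highest value, 69.7 CPM, in siBYSL 3. Without that library it was still called higher, at 0.22 (SE 0.050, adjusted p = 0.00103). The call was lost without siNC 2 or without siNC 3 (largest adjusted p 0.0617, smallest 2.0e-05 over all alternatives). POLD4 counts were 1.67, 1.84 and 2.01 times POLD1 counts in siBYSL 1 to 3 and 1.10, 1.06 and 1.10 times in siNC 1 to 3.

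**Figure D3:**
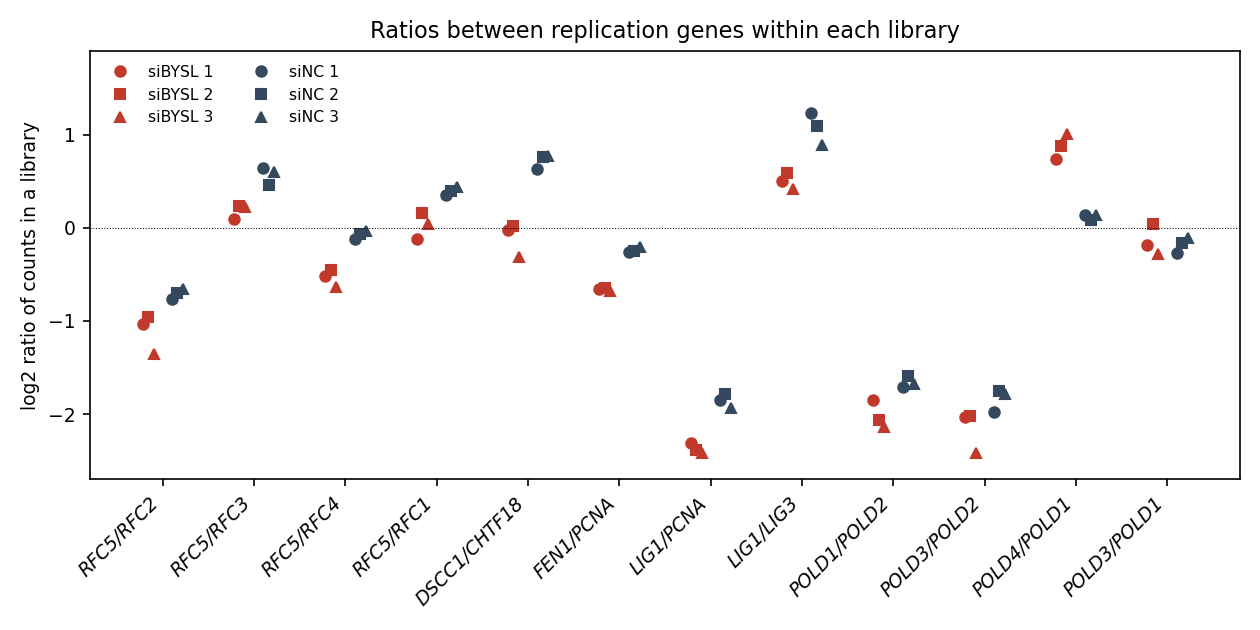
Log2 ratio of the counts of 2 replication genes within each library, siBYSL in red left of siNC in dark blue, with a marker shape per replicate number. Every ratio but POLD3/POLD1 separates the groups, and POLD4/POLD1 is the only one of the 12 in which every siBYSL library lies above every siNC library.

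Levels of different genes were compared as CPM per kilobase of annotated exon. PCNA was highest, at 147.6 ± 4.2 in siBYSL and 142.7 ± 3.8 in siNC (SD, n = 3 each, here and in the next sentences), and FEN1 followed at 55.4 ± 0.91 in siBYSL and 71.8 ± 1.8 in siNC. Among small loader subunits RFC2 led at 42.5 ± 4.6 in siBYSL and 47.4 ± 2.6 in siNC, then RFC4 at 20.9 ± 0.67 in siBYSL and 22.5 ± 1.1 in siNC. With this length RFC5 and RFC3 stood at 13.3 ± 0.82 and 13.3 ± 0.85 in siBYSL, within their spread of each other, whereas in siNC RFC5 at 19.8 ± 0.45 exceeded RFC3 at 15.1 ± 0.68. DSCC1, POLD1 and LIG1 lay at 6.60 ± 0.26, 6.58 ± 0.48 and 6.36 ± 0.16 in siBYSL, also within their spread. In siNC DSCC1 was above both, at 11.01 ± 0.35 against 8.81 ± 0.33 for POLD1 and 8.81 ± 0.43 for LIG1. POLD3 was lowest, at 5.34 ± 0.24 in siBYSL and 6.95 ± 0.18 in siNC. The order of these 4 low genes depended on the length used. Per kilobase of the longest coding transcript LIG1 led them, at 10.6 in siBYSL and 14.7 in siNC, and POLD1 stood at 9.23 in siBYSL and 12.35 in siNC. On that scale DSCC1 was lowest in siBYSL at 7.42, below POLD3 at 7.69, while in siNC it stood at 12.38, beside POLD1, and POLD3 was lowest at 10.02. RFC5 was then above RFC3 in both groups, at 17.7 against 15.9 in siBYSL and 26.2 against 18.0 in siNC.

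Other replication genes, were grouped in 10 lists by role. Of 110 tested, 33 were lower (30.0%) and 7 higher (6.36%), with a median log2 fold change of -0.10, beside 18.4% lower and 18.5% higher among all genes. Without siBYSL 3 these counts were 40 and 16, beside 4075 lower and 3929 higher of all 16743 genes tested. With library totals they were 18 and 9, beside 1989 lower and 4106 higher of all 16412. Across all genes 50.04% of calls were rises, against 67.4% with library totals and 60.02% with upper-quartile factors, so the number of falls depends on scaling; the 6 calls in the set of 10 held under both. Of 7 tested genes of other clamp loaders and the checkpoint clamp 1 was lower, RFC1, and 0 higher; HUS1, part of the checkpoint clamp, stood at -0.19 (adjusted p = 0.067, and 0.0192 without siBYSL 3). Of 4 genes of polymerase alpha-primase, which makes the primers, 1 was lower: POLA2 at -0.17 (adjusted p = 0.0394), a call lost under 10 of 15 alternatives, while PRIM2 (-0.11) and PRIM1 (-0.08) were not called.

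Of 8 further genes of polymerases delta and epsilon 2 were lower and 2 higher. POLDIP3, which encodes a protein that binds polymerase delta, fell to 43.0 ± 0.64 CPM in siBYSL, against 71.9 ± 0.35 CPM in siNC (SD, n = 3 each; log2 fold change -0.74, adjusted p = 3.5e-06). The histone-fold subunit POLE3 fell by 0.45, and the catalytic subunit of the leading-strand polymerase, POLE, rose by 0.19 (adjusted p = 0.0443). Of 9 genes of Okazaki fragment processing and single-strand binding 3 were lower and 0 higher with all 6 libraries. RPA2, a subunit of the single-strand binding protein (-0.33), and the ribonuclease gene RNASEH1 (-0.47) fell. So did the nuclease-helicase gene DNA2 (-0.31), a call lost with library totals and without siNC 1, at a largest adjusted p of 0.0583. Without siBYSL 3, RPA3 (-0.19, adjusted p = 0.0105, edgeR) and RNASEH2C (-0.16, adjusted p = 0.0102, edgeR) were called lower too. Of 6 genes of other ligases and nick repair 0 were lower and 1 was higher, XRCC4, the partner of LIG4 in end joining, at 22.6 ± 0.89 CPM in siBYSL and 16.4 ± 0.57 CPM in siNC (SD, n = 3 each; 0.46, adjusted p = 4.1e-04). The nick sensor gene PARP1 (-0.17, adjusted p = 0.0505, called lower under 6 of 15 alternatives) and the end-joining ligase gene LIG4 (-0.20, adjusted p = 0.32) were not called.

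Of 18 genes whose products bind PCNA or act on it 5 were lower and 1 higher. CDKN1A, which encodes the PCNA-binding cell-cycle inhibitor p21, had the lowest fold change of them (-1.78, SE 0.050). CDT1, whose protein is degraded on PCNA, fell by 0.43 and UHRF1, a partner of DNMT1, by 0.22, the last not with library totals (adjusted p = 0.0693, the largest over all alternatives; the smallest was 7.4e-04). Without siBYSL 3, TRAIP of the PCNA list was called lower too (-0.21, adjusted p = 0.0156, edgeR). Of 16 genes of cohesion and fork protection, the process in which DSCC1 takes part, 4 were lower and 1 higher with all 6 libraries. STAG1, a cohesin subunit, fell by 0.35 and CDCA5, which encodes sororin, by 0.18 (lost under 8 of 15 alternatives). TIPIN, a fork protection gene, rose by 0.35. Without siBYSL 3 the 4 falls were still called. SMC3 (0.30, adjusted p = 1.8e-06, edgeR), WDHD1 (0.17), STAG2 (0.16) and RAD21 (0.12) were then called higher too.

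In the lists of helicase loading, G1/S regulators and cycling cells more genes were called lower than higher, and others were not called. The shares lower were 47.4%, 26.7% and 50%, beside 18.4% of all genes tested. The G1/S list also had 13.3% higher, beside 18.5% of all genes, and a median log2 fold change of -0.026. Of 19 genes of helicase loading and the replicative helicase 9 were lower and 0 higher, led by CDC6 (-0.39), MCM7 (-0.30) and MCM5 (-0.30). Without siBYSL 3, MCM3 was called lower too (-0.11, adjusted p = 0.0253, edgeR), and the call of ORC1 was lost (-0.20, adjusted p = 0.0515, edgeR). Of 15 E2F and G1/S regulators 4 were lower and 2 higher with all 6 libraries. Cyclin E1, CCNE1, fell by 0.60, CDC25A by 0.43, CDK2 by 0.47 and E2F4 by 0.31, while RBL1 rose by 0.35 and MYBL2 by 0.30. E2F1 stood at 73.2 ± 4.5 CPM in siBYSL and 73.9 ± 0.68 CPM in siNC (SD, n = 3 each) and was not called. Without siBYSL 3, TFDP1 (0.26, adjusted p = 2.3e-05, edgeR), CCNE2 (0.22) and RB1 (0.16) were called higher too, and CCNA2 (-0.11) lower. Of 8 genes of cycling cells 4 were lower and 0 higher (TYMS -0.44, RRM2 -0.33, AURKB -0.24, CDK1 -0.17), whereas MKI67 averaged 276.8 ± 10.4 CPM in siBYSL and 286.4 ± 9.5 CPM in siNC (adjusted p = 0.494, edgeR) and TOP2A 378.6 ± 44.8 CPM in siBYSL and 357.5 ± 11.4 CPM in siNC (adjusted p = 0.439, edgeR). Without siBYSL 3, where it was lowest at 328.6 CPM, TOP2A was called higher, at 0.18 (SE 0.041, adjusted p = 0.00142). BUB1 (-0.15, adjusted p = 0.0743, edgeR) and CCNB1 (-0.105, adjusted p = 0.122, edgeR) had negative fold changes with all 6 libraries but were not called. The part that the number of replicating cells had in the falls of the 10 genes was not tested.

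**Figure D4:**
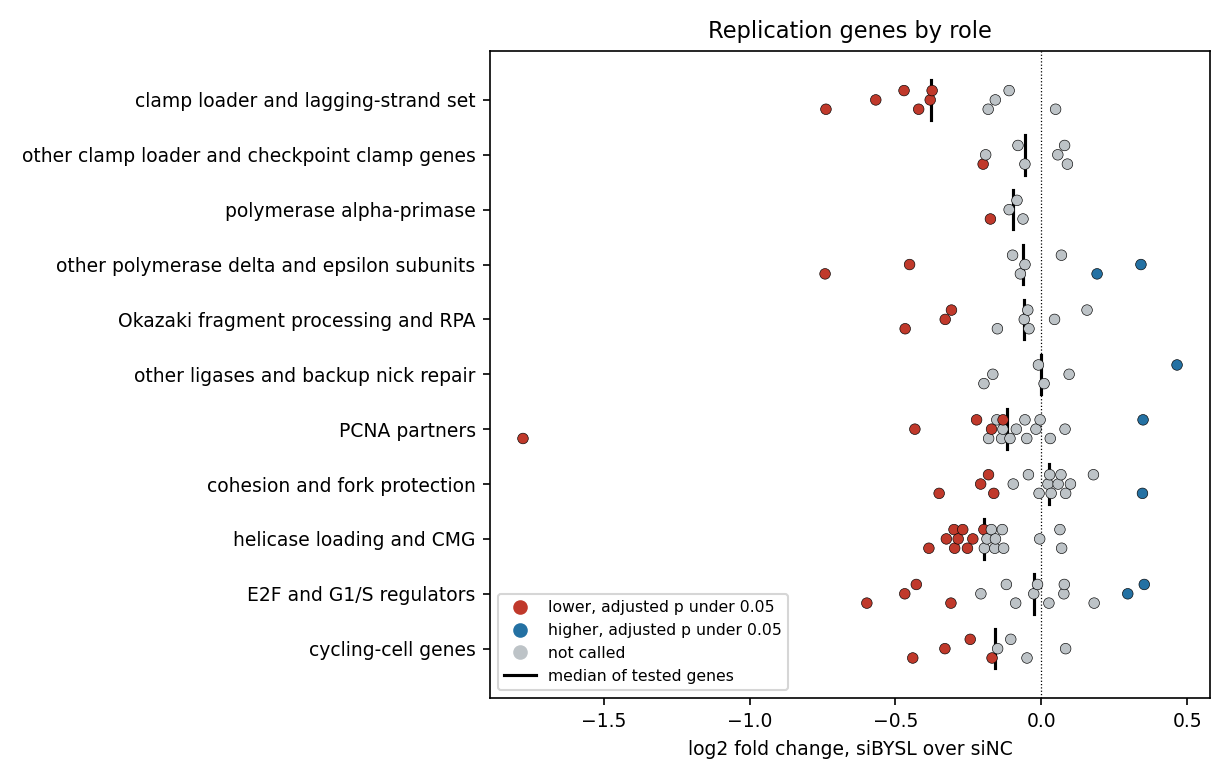
Log2 fold change of siBYSL over siNC for every tested gene of the clamp loader and lagging-strand set and of 10 related lists, in red or blue where called lower or higher (adjusted p under 0.05); the short black line is the median of each list and points are spread vertically for legibility. The set of 10 has a median of -0.38, helicase genes -0.20, and the isolated point at -1.78 is CDKN1A.

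The genes nearest in pattern, among 9922 others with a mean of 10 CPM or more, were TRIAP1, SLC52A2, CCT4, KLHL17 and TBRG4. Their log2 CPM correlated with the mean standardised log2 CPM of the 10 genes at Pearson r of 0.9995, 0.9974, 0.9974, 0.9968 and 0.9967 over 6 libraries, with fold changes of -0.34, -0.45, -0.27, -0.32 and -0.32. The 6 libraries form 2 groups of 3, so any gene with a clear group difference scores high, and the values are a description.

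An siRNA strand can also lower transcripts whose 3′ UTR pairs with its seed, bases 2 to 8, as a microRNA does, so the 10 genes were searched for the site of the BYSL siRNA. The guide strand, without its overhang, is shown with its seed in capitals, and beneath it the RNA-sense stretch of the RFC5 3′ UTR (transcript RFC5-201, chr12:118031767-118031796, plus strand, GRCh38) with the matching heptamer in capitals.
Guide strand: uAUUCAGCaacgucaucuc
RFC5 3′ UTR: ttataagatgaGCTGAATcctcttacttta

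The heptamer GCTGAAT lay at base 500 of the 956 bases of that 3′ UTR. DSCC1 was the second of the 10 genes with the heptamer in its longest annotated 3′ UTR, at base 509 of 917, and there an A followed it (GCTGAATA). These 2 of 10 genes (20%) compare with 1549 of 13073 tested genes with a 3′ UTR (11.8%), of which 33.8% were called lower, against 19.2% of genes without the heptamer. DSCC1 and RFC5 were the genes with the lowest fold changes of the set (-0.74 and -0.57). The other 4 called genes, FEN1, LIG1, POLD1 and POLD3, held no such heptamer in any annotated 3′ UTR. Of the 110 related genes tested, 9 held it in their longest annotated 3′ UTR. Of these 9, 5 were called lower (CDKN1A, POLDIP3, RRM2, GINS2 and SMC1A), 0 higher and 4 not called (MKI67, GINS1, PDS5A and PDS5B). CDKN1A, RRM2 and PDS5B held GCTGAATA. CCNB1 held the heptamer only in an annotated 3′ UTR other than its longest. No gene of the 10 held the passenger-strand heptamer GTCATCT. Whether pairing with the siRNA had a part in the values of DSCC1 and RFC5 was not tested, and bystin loss and such pairing cannot be told apart where a single siRNA was used.

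Since replication genes are known for E2F sites near their starts, promoters were searched for the E2F-type motif TTTNNCGC on either strand, in RefSeq windows (GRCh38.p14) from 250 bases before to 50 bases after each start. Windows matched 8 of the 10 genes by symbol. The motif was found for 4 of them (50%), RFC3, RFC5, LIG1 and PCNA, beside 12.7% of 11238 tested genes with a window, 42 of 95 related replication genes (44.2%) and 6.89% of all 35116 windows. The 4 stretches of 60 bases are shown 5′ to 3′ on the strand of the gene, with the motif in capitals (as its reverse complement where it lies on the other strand), because they set genes that fell beside genes that were not called.
RFC5, chr12:118016686-118016745, plus: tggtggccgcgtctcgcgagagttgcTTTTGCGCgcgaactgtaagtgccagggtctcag
LIG1, chr19:48170425-48170484, minus: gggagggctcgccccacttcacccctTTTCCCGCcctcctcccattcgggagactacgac
RFC3, chr13:33818068-33818127, plus: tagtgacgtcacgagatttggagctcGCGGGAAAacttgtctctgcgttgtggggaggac
PCNA, chr20:5126648-5126707, minus: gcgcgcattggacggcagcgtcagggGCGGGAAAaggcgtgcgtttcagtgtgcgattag

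RFC3 and PCNA carried the same 8 letters, GCGGGAAA, at 55 and 59 bases before the start, and neither was called with all 6 libraries. LIG1, which fell, carried TTTCCCGC, the same letters read on the gene's own strand, at 114 bases before the start. RFC5, which fell, carried TTTTGCGC just after the start. No match in these windows was found for RFC2, RFC4, FEN1 and POLD1, of which FEN1 and POLD1 fell. The presence of this motif thus did not separate called from uncalled genes among the 8.

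Several of the 10 genes share annotated exon bases with a neighbour (GENCODE 29), and whether counting used strand is not stated in these sources. RFC5 shares 186 bases with WSB2 on the opposite strand (155.7 CPM in siBYSL and 167.0 CPM in siNC; -0.10, adjusted p = 0.126, edgeR). FEN1 shares 166 bases with TMEM258 on the opposite strand (-0.13, adjusted p = 0.351) and 49 with FADS2 on its own strand, which fell by 0.20 (adjusted p = 0.0113). RFC4 shares 21 bases with EIF4A2, and LIG1 shares 179 with an antisense gene at 0.299 CPM in siBYSL and 0.375 CPM in siNC. On its own strand POLD1 shares 426 bases with the gene AC020909.1, annotated as protein coding, at 0.0578 CPM in siBYSL and 0.0238 CPM in siNC. POLD3 shares 123 bases on its own strand with the non-coding RNA gene AP001372.2, which was higher, at 4.33 CPM in siBYSL and 3.12 CPM in siNC (0.48, adjusted p = 0.0167, edgeR). Processed pseudogenes of RFC3, RFC5, PCNA and FEN1 are annotated, none of them with a row of counts here, and how reads that match both were counted is not stated in these sources.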

How the data were processed

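Strand-specific poly(A) RNA-seq libraries of 150 nt paired-end reads were made from 3 siBYSL and 3 siNC cultures, per the labels' protocols. The deposited table gives raw counts per gene, 1 column per library. Per the submitters' processing notes, which name HISAT2, DESeq2 and GRCh38.p13, no role of either tool is given. How reads were counted, on which annotation and with which filters is not given here.

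Counts were filtered with filterByExpr, leaving 16412 genes, scaled with TMM factors (1.011 to 1.04 in siBYSL, 0.9645 to 0.9806 in siNC) and compared by the edgeR 4.0.16 quasi-likelihood test (R 4.3.3, group-only design, Benjamini-Hochberg over all genes, threshold 0.05). The SE is the absolute log2 fold change over the square root of F. The common biological coefficient of variation was 0.0649, and the precision for each gene also depended on its own spread between libraries and its counts. P-values describe the spread between 3 and 3 cultures of a single line. CPM use TMM-scaled library sizes. Exon lengths, positions and 3′ UTRs came from GENCODE 29 (GRCh38), and promoters from RefSeq. The test was tried on simulated counts with known changes first. Alternatives were DESeq2 1.42.0 size factors and its Wald test, limma-voom (limma 3.58.1), scaling by library totals or upper quartiles, testing all genes unfiltered, keeping genes of at least 1 CPM in 3 or more libraries, a block on replicate number, mitochondrial transcripts left out and each library left out in turn. Named genes were the 10 genes, BYSL, up to 3 genes of smallest p in each list and the 5 genes nearest in pattern. CHTF18, CHTF8, ATAD5, LIG3, POLD2, POLE, E2F1, CDK1, MKI67 and TOP2A were named after their values were seen. So were E2F4, RBL1, MYBL2, TFDP1, CCNE2, RB1, CCNA2, SMC3, WDHD1, STAG2, RAD21, BUB1 and CCNB1, and RPA3, RNASEH2C, TRAIP, MCM3 and ORC1. Related genes with the siRNA heptamer and the overlapping genes were also named after their values were seen. The 10 genes and all lists were chosen with earlier results of these data known.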

Additional observations from a re-analysis of the deposited data

How the results depend on the processing

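DSCC1, RFC5, LIG1, POLD1, POLD3 and FEN1 stayed lower and called under all 15 alternatives, as did BYSL. Of 150 alternative values of the 10 genes 143 kept their direction and side of the threshold and 7 crossed it to a call: RFC2 in 2, RFC3 in 4 and RFC4 in 1. Leaving out a library gave 6 to 9 of the 10 genes lower, 9 of them without siBYSL 3. With library totals 1989 genes were lower in all, 18 related replication genes were lower and the median of the 10 genes was -0.30; with upper-quartile factors that median was -0.33. Scaling moved the median of all genes to at most 0.085. Leaving out a library gave 21 to 40 related genes lower and 5 to 16 higher. Over all genes these fits gave 2105 to 4075 lower and 2121 to 3929 higher. Among related genes the lowest count of falls came without siNC 1 and the highest of rises without siBYSL 3, and the cause was not tested. With a replicate block 6 of the 10 genes were lower, with 2764 genes lower and 2802 higher in all. Same-numbered libraries did not visibly deviate together (correlations of deviations of -0.129, 0.060 and 0.011, beside -0.168 to 0.151 for other numbers). With 3 libraries per group this cannot exclude pairing. The numbers were not used as pairs in the main fit. At these totals the SE of the 10 genes' log2 fold changes was 0.047 to 0.076, which limits how small a change could be called.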
